A study of Mus musculus with 10 samples.

Results

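The genes described are 9 cytokine, receptor and surface genes best known from immune cells, measured in mouse oocytes: Ccl2, Il20ra, Il17f, Srgn, Cd200, Btla, Clec12a, Sirpb1c and C1qb. They were picked by symbol, with the differences between the groups of these libraries in view, so their differences between groups are given as a description, with no p-value for any of them. All 9 were found among the 18493 genes of the count table, and all 9 were among the 12315 genes whose counts were high enough to be tested.

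The study profiled oocytes, labelled as germ cells from the ovary, in 3 groups: young (3 libraries, labelled Control), aged (3 libraries, labelled Treatment) and spermidine (4 libraries, labelled Rescue). Its design text asks how spermidine, a polyamine, improves the quality of aged oocytes, by comparing transcript levels of these groups. The labels give no age, strain, dose or route, and they do not say whether the spermidine group came from aged females beyond calling it a rescue. They also give no number of oocytes or animals behind a library, so any p-value here reflects library-to-library spread, which may be technical. Libraries were made from oligo dT primed, amplified cDNA (SMART-seq2). They held 24222201 to 28730822 counts each. A level is given as CPM, the gene's count per 1000000 counts of the scaled library total. In such bulk samples, fewer cells of a type and less RNA per cell cannot be told apart.

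Several of these proteins work as pairs of a signal and its receptor. Chemokines such as the Ccl2 product draw leukocytes along a gradient, interleukins bind receptors built of a pair of different chains, and surface proteins such as the products of Cd200, Btla, Clec12a and the Sirp family set the threshold at which an immune cell responds. In the ovary, leukocytes, chiefly macrophages, lie in the stroma and around follicles, outside the zona pellucida that encloses the oocyte, so blood and immune cells carried over with an oocyte are a known source of such transcripts in oocyte libraries.

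The oocyte label held in the libraries. The 12 measured genes of a 13-gene oocyte marker list summed to 34666 to 52431 CPM in the 10 libraries. Young replicates 1 and 3 and aged replicate 1 stood apart in blood content: 6 haemoglobin genes summed to 290 to 431 counts there and to 0 to 4 counts in the other 7 libraries. Differences for aged minus young without these 3 libraries are given for the 9 genes, as counts for Il20ra. For most other genes whose calls are reported, the value or the fate of the call is given. Ccl5, called for spermidine minus young, was not tested in the fit without these libraries and is not counted below as lost. That fit keeps 1 young and 2 aged libraries, and of the partner, pathway and neighbour genes called in the full fit it lost 25 of 28 calls for aged minus young, 10 of 13 for spermidine minus young and 6 of 8 for spermidine minus aged. Spermidine replicate 4 was the lowest of its group for 5 of the 9 genes and the highest for 3. Over all tested genes it was the lowest in 28.7% and the highest in 30.6%, and spermidine replicate 1 was the lowest in 28.8% and the highest in 31.8%.

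Levels per unit of transcript length were compared within each group, since the order of the 9 genes differed between groups. Each mean was divided by the length of the longest protein-coding transcript. In young oocytes Ccl2 stood highest at 22.6 ± 13.2 CPM per kb (SD, n = 3), followed by Cd200 at 18.2 ± 4.38, Il17f at 17.7 ± 4.57 and C1qb at 15.3 ± 3.02, neighbours that did not differ beyond their spread. Sirpb1c had 12.6, Btla 7.46, Clec12a 4.90 and Srgn 2.45 CPM per kb there, and Il20ra was at 0. In aged oocytes Srgn stood highest at 39.0 ± 2.87 CPM per kb (n = 3), then Il17f at 31.0 ± 3.56, C1qb at 15.2, Clec12a at 13.8 and Il20ra at 10.1. Cd200 at 2.00, Ccl2 at 1.98, Btla at 1.82 and Sirpb1c at 1.06 CPM per kb were the lowest of the 9 in aged oocytes. With spermidine Il17f had 59.5 ± 17.6 CPM per kb (n = 4) and Srgn 44.1 ± 17.8, within their spread of each other, and Sirpb1c was again the lowest at 0.855.

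The change between aged and young oocytes went both ways. Il20ra, Srgn, Clec12a and Il17f were higher in every aged library than in every young one, and Ccl2, Cd200, Btla and Sirpb1c were lower in every aged library. C1qb showed no such separation. The 8 genes with separate groups compare with a background of 40.0% of all tested genes whose aged and young libraries did not overlap, and 8 of 9 were past an adjusted p of 0.05 in edgeR's quasi-likelihood test against 17.8% of all tested genes. Both counts follow from how the genes were picked. The median size of the log2 difference was 3.19 for the 9 genes and 0.40 for all tested genes.

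In the spermidine group the 9 genes fell into different patterns. Against aged, 5 of 9 had groups that did not overlap (19.8% of all tested genes) and 4 were past the threshold (4.86% of all tested genes), all 4 of them higher with spermidine. Against young, 6 of 9 did not overlap (21.0% of all tested genes) and 5 were past the threshold (5.36% of all tested genes), 3 higher and 2 lower. These counts too follow from how the genes were picked. The comparisons share their libraries, so the values of each gene in all 3 groups are set side by side below.

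**Figure D1:**
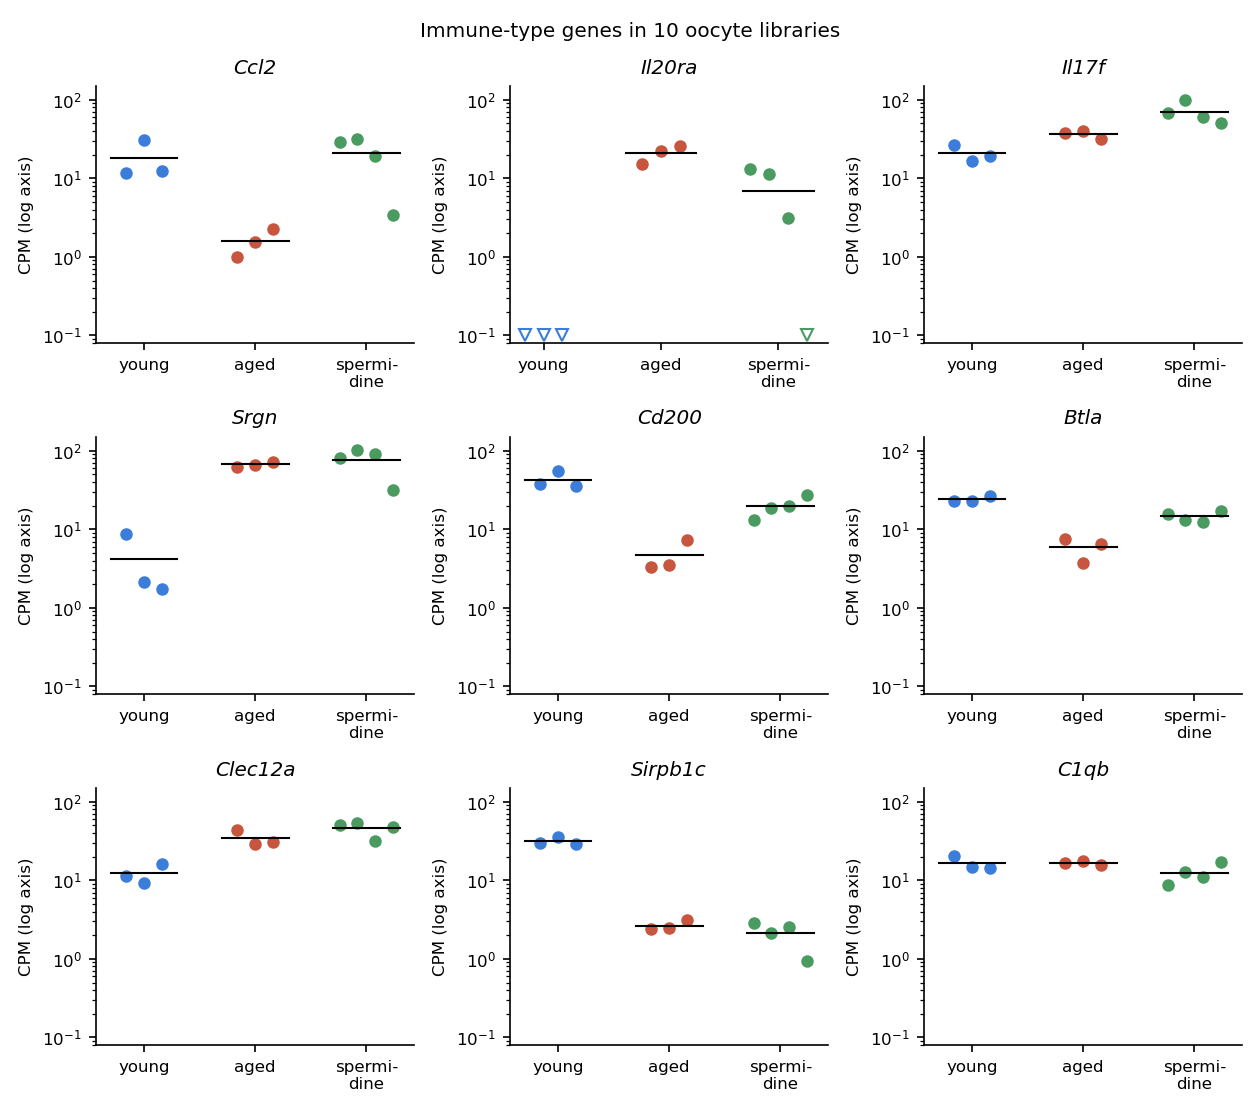
CPM of each of the 9 genes in the 10 libraries, on a log axis. Each point is 1 library in the order of its replicate number, the line is the group mean, and an open triangle at the bottom of the axis marks a library with a count of 0. Il20ra had a count of 0 in all 3 young libraries and in spermidine replicate 4, Ccl2 was low in the 3 aged libraries, and C1qb lay at a like level in all groups.

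Promoter sequences are shown for the genes whose data bear on a shared locus or on an on and off pattern: Il20ra, which had no count in young oocytes, the neighbouring pair Btla and Cd200, and the Sirpb1 paralogs. Each is the 250 bases before the RefSeq start on build GRCm38.p6, 5′ to 3′ on the gene's strand, in lower case with each E box (CANNTG, read on both strands because it reads the same on each) in capitals.

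Il20ra (chr10:19712337-19712586, plus strand): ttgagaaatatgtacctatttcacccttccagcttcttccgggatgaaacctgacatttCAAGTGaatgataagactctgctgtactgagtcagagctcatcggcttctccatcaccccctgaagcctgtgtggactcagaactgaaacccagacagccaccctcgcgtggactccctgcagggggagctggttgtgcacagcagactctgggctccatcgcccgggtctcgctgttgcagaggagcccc
Btla (chr16:45224087-45224336, plus strand): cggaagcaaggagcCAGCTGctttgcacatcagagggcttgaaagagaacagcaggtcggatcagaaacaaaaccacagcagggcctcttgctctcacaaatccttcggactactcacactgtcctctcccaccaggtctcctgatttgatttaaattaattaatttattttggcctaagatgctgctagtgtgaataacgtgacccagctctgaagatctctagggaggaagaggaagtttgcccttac
Cd200 (chr16:45409054-45409303, minus strand): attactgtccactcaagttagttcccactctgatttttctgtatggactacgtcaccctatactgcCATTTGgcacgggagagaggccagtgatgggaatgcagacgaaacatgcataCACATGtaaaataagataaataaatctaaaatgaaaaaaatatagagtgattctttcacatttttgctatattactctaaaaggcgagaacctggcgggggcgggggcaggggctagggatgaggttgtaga

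Btla and Cd200 lie next to each other on chromosome 16 and point towards each other, with 185 kb between their starts. Their promoter windows, shown above, hold 1 and 2 E boxes. The E box, bound by basic helix-loop-helix factors such as the oocyte factor Figla, occurred in 66.2% of 32851 RefSeq promoter windows of this length and in 8 of the 9 windows found for these genes (Srgn has a pair of windows, and Ccl2 has none in the table). The element bound by the oocyte homeobox factor Nobox, TAATTG on either strand, occurred in 7.17% of all windows and in 0 of the 9. A TATA box (TATAAA on either strand) occurred in 12.4% of all windows and in 2 of the 9, those of Il17f and of Srgn. The NF-kappaB consensus occurred in 7.25% of all windows and in 0 of the 9. A match describes letters only, and a window without one says nothing about the factor.

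The Sirpb1 promoters are shown because the paralogs share sequence and differed in level.

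Sirpb1c (chr3:15848488-15848737, minus strand): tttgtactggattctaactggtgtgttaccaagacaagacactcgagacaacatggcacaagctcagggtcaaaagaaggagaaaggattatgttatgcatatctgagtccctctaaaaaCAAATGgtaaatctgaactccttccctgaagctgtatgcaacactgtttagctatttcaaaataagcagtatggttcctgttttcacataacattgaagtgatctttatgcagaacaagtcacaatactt
Sirpb1b (chr3:15575066-15575315, minus strand): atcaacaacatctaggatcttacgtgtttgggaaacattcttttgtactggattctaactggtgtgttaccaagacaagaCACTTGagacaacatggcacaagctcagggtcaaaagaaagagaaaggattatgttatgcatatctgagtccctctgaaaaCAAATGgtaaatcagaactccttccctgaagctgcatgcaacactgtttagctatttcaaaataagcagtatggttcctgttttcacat
Sirpb1a (chr3:15426428-15426677, minus strand): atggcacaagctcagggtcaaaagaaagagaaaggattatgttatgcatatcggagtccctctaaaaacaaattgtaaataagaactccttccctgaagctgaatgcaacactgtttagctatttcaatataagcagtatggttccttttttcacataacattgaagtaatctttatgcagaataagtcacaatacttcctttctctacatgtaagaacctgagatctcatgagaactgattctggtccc

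In a pairwise alignment the Sirpb1c window matched Sirpb1b at 204 bases (81.6% of the 250) and Sirpb1a at 188 bases (75.2%). The Sirpb1b and Sirpb1a windows matched at 150 bases (60.0%). Within these windows Sirpb1b holds 2 E boxes, Sirpb1c holds 1 and Sirpb1a holds 0.

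Ccl2, the chemokine that draws monocytes through the receptor Ccr2, was high in young oocytes, low in aged ones and high again in most spermidine libraries. Its level was 11.8, 30.8 and 12.4 CPM in young replicates 1 to 3, and 1.00, 1.55 and 2.28 CPM in the aged replicates. The spermidine replicates held 29.2, 31.5, 19.2 and 3.41 CPM. Every aged library lay below every library of the other groups, and spermidine replicate 4 lay between the aged libraries and the rest. The mean was 18.3 ± 10.8 CPM (SD, n = 3) in young, 1.61 ± 0.639 (n = 3) in aged and 20.9 ± 12.8 (n = 4) in spermidine oocytes. The log2 difference was -3.52 (SE 0.70) for aged minus young and 3.70 (SE 0.68) for spermidine minus aged, and 4.05 without spermidine replicate 4. Spermidine and young libraries overlapped, and their difference of 0.18 (SE 0.56) ranged from -0.61 to 0.78 over the alternatives. The Ccl2 receptors were near absent: Ccr2 had 0 to 13 counts and the scavenging receptor Ackr2 0 to 2 counts in a library, against 30 to 972 counts of Ccl2. Ccl2 overlaps a gene annotated on the opposite strand, Gm17268, so reads from either could not be told apart where counting did not use strand.

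Il20ra, the alpha chain of the receptor for interleukins 19, 20 and 24, was an on and off gene in these libraries. It had 0 counts in each of the 3 young libraries, 463, 596 and 695 counts in the aged libraries, and 435, 318, 78 and 0 counts in the spermidine libraries. In CPM the aged libraries held 15.4, 22.6 and 25.5, with a mean of 21.2 ± 5.17 (SD, n = 3). The spermidine libraries held 13.1, 11.5, 3.16 and 0, with a mean of 6.94 ± 6.36 (n = 4). Every spermidine library lay below every aged one, and spermidine replicate 4 matched the young libraries in having no count. With the young group as a whole put at 3 counts, the upper limit that a count of 0 allows, the aged mean was at least 509-fold higher and the spermidine mean at least 167-fold higher. The spermidine minus aged log2 difference was -1.60 (SE 0.99), and -1.19 without spermidine replicate 4. Il20ra overlaps a gene annotated on the opposite strand, Gm33332, so reads from either could not be told apart where counting did not use strand.

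The chains and cytokines that work with Il20ra were lower or closer between groups. Il20rb, the partner chain, had 1 count in 1 library and 0 in the other 9. Il10rb, the shared second chain of the wider receptor family, fell from 19.7 ± 2.73 CPM (SD, n = 3) in young to 10.3 ± 2.74 (n = 3) in aged oocytes and was 13.2 ± 3.08 (n = 4) with spermidine. Its log2 difference of -0.94 (SE 0.24) for aged minus young passed edgeR's quasi-likelihood test (adjusted p = 0.019), with no overlap between the groups, but leaving out young replicate 1, young replicate 2 or aged replicate 2 ended the call, as did leaving out the 3 libraries with haemoglobin (-1.05, adjusted p = 0.20). Among the ligands, Il20 had 1.98 CPM in young, 1.09 in aged and 2.11 in spermidine oocytes and did not pass in edgeR's test (adjusted p = 0.065 for aged minus young and 0.070 for spermidine minus aged). Il19 had 1 to 5 counts and Il24 0 to 8 counts in a library.

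Il17f, a cytokine of the interleukin 17 family that acts through Il17ra and Il17rc, was lowest in young oocytes and highest with spermidine. The young libraries held 26.8, 16.4 and 19.1 CPM, the aged libraries 38.0, 39.9 and 31.9 CPM and the spermidine libraries 68.2, 99.5, 61.3 and 51.4 CPM. All 3 groups were separate, with means of 20.8 ± 5.38 (SD, n = 3), 36.6 ± 4.19 (n = 3) and 70.1 ± 20.8 (n = 4). On the log2 scale the difference was 0.82 (SE 0.25) for aged minus young, 0.94 (SE 0.23) for spermidine minus aged and 1.75 (SE 0.24) for spermidine minus young. Of its 50-base words in annotated transcripts, 5.63% occur in other genes as well. The receptor chain Il17ra had 1.41 CPM in young, 2.25 in aged and 1.82 in spermidine oocytes and did not pass in edgeR's test (adjusted p = 0.13 for aged minus young), and Il17rc had 2 to 11 counts in a library. Nfkbiz, a nuclear co-regulator known to be induced by interleukin 17 in epithelium, rose from 13.2 ± 0.149 CPM (n = 3) to 24.7 ± 4.10 (n = 3) in aged oocytes, by 0.91 on the log2 scale (SE 0.19, edgeR adjusted p = 0.0084). It was 25.6 ± 4.89 (n = 4) with spermidine. Without the libraries with haemoglobin the aged minus young value was 0.71 and did not pass (edgeR adjusted p = 0.28).

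Srgn, the core protein of the proteoglycan serglycin that packs secretory granules in blood cells, was low in young and high in aged and spermidine oocytes. The young libraries held 8.85, 2.12 and 1.73 CPM and the aged libraries 63.1, 66.3 and 72.8 CPM. The spermidine libraries held 80.3, 101, 91.3 and 31.9 CPM. The young libraries lay apart from all others, and the aged and spermidine libraries overlapped, with spermidine replicate 4 below the aged ones. Means were 4.23 ± 4.00 CPM (SD, n = 3), 67.4 ± 4.95 (n = 3) and 76.1 ± 30.7 (n = 4). The difference on the log2 scale was 4.01 (SE 0.57) for aged minus young and 4.18 (SE 0.56) for spermidine minus young. Young replicate 1, which also had the most Ptprc counts, was the highest young library, and without it the differences were 5.08 and 5.26. Spermidine minus aged was 0.18 (SE 0.46). Cd44, a surface receptor that binds serglycin, had 0 to 10 counts in a library.

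Cd200, a surface glycoprotein that restrains myeloid cells through Cd200r1, was high in young, low in aged and in between with spermidine. The young libraries held 38.2, 54.6 and 35.6 CPM, the aged libraries 3.30, 3.52 and 7.27 CPM and the spermidine libraries 13.3, 18.6, 19.8 and 27.5 CPM. No library of a group reached into another group, and spermidine replicate 4 was the closest to the young libraries. Means were 42.8 ± 10.3 (SD, n = 3), 4.70 ± 2.23 (n = 3) and 19.8 ± 5.88 (n = 4). The log2 difference was -3.19 (SE 0.34) for aged minus young, 2.08 (SE 0.32) for spermidine minus aged and -1.11 (SE 0.29) for spermidine minus young. Without aged replicate 3, the first of these was -3.65 and the second 2.53. Its receptor Cd200r1 had 0 to 9 counts, with 0 in 7 libraries. Cd200r3, a relative of that receptor that couples to an activating adaptor, was low throughout but rose in aged oocytes, from 0.132 ± 0.0934 CPM (n = 3) to 1.93 ± 0.784 (n = 3), by 3.88 on the log2 scale (SE 0.60, edgeR adjusted p = 0.0019). It fell to 0.0651 ± 0.0593 CPM (n = 4) with spermidine, a log2 difference of -4.84 from aged (SE 0.58, edgeR adjusted p = 0.0021). Both calls held with each library left out. Without the 3 libraries with haemoglobin the first was 5.17 and did not pass (edgeR adjusted p = 0.061), and the second was -4.47 and passed (0.019).

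Btla, an inhibitory receptor of lymphocytes that binds Tnfrsf14, moved like its neighbour Cd200 over a smaller range. Young oocytes held 22.9, 22.9 and 27.0 CPM, the aged libraries 7.64, 3.68 and 6.46 CPM and the spermidine libraries 15.7, 13.3, 12.4 and 17.0 CPM. The 3 groups did not overlap, and the young libraries were within 1.18-fold of each other. Means were 24.2 ± 2.35 (SD, n = 3), 5.93 ± 2.04 (n = 3) and 14.6 ± 2.15 (n = 4). Log2 differences were -2.03 (SE 0.24) for aged minus young, 1.30 (SE 0.23) for spermidine minus aged and -0.73 (SE 0.22) for spermidine minus young. Tnfrsf14 itself had 2.94 to 23.1 counts in a library and did not pass in edgeR's test (adjusted p = 0.98 for aged minus young). Cd160, another receptor that binds Tnfrsf14, was higher with spermidine at 60.3 ± 9.69 CPM (n = 4) than in young oocytes at 28.2 ± 0.483 (n = 3), by 1.10 on the log2 scale (SE 0.17, edgeR adjusted p = 0.0024), and by 1.04 without the libraries with haemoglobin (adjusted p = 0.17). Aged oocytes held 34.5 ± 6.89 CPM of Cd160 (n = 3).

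The tested genes beside Btla and Cd200 did not pass the test. Atg3, a conjugating enzyme of autophagy that is the next gene on the Btla side, held 7.21 ± 2.59 CPM in young (SD, n = 3), 6.97 ± 2.89 in aged (n = 3) and 8.97 ± 1.43 in spermidine oocytes (n = 4). Its log2 difference for aged minus young was -0.05 (SE 0.31, edgeR adjusted p = 0.91). Slc35a5, the gene after it, had 0.37 (SE 0.21, edgeR adjusted p = 0.22). On the Cd200 side Slc9c1 had at most 11 counts and Tagln3 at most 1 count in a library.

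**Figure D2:**
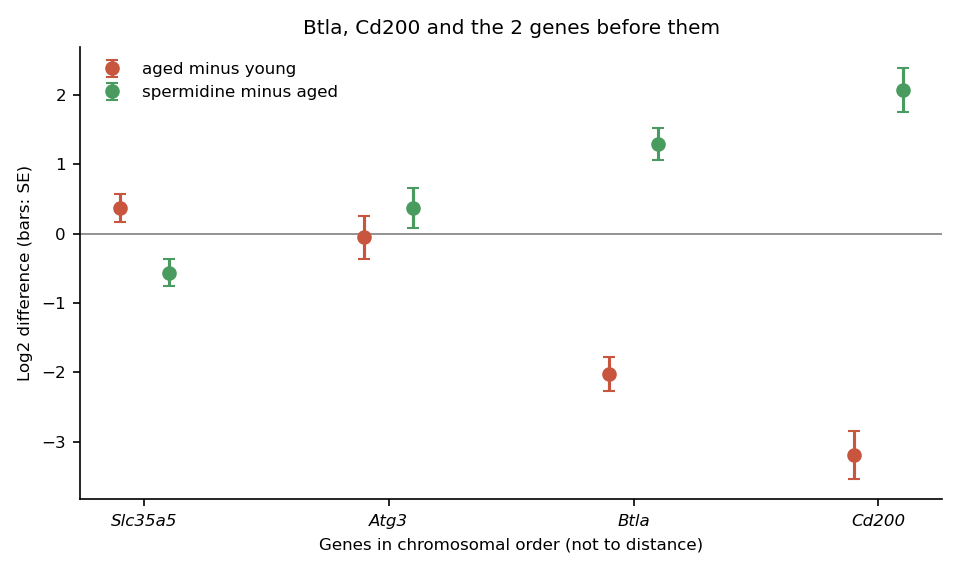
Log2 difference (bars: SE) of Btla, Cd200 and the 2 genes before them in chromosomal order, for aged minus young and spermidine minus aged. Cd200 and Btla lay at -3.19 and -2.03 for aged minus young and at 2.08 and 1.30 for spermidine minus aged, while Atg3 lay at -0.05 and 0.37.

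Clec12a, a C-type lectin receptor of myeloid cells that carries an inhibitory motif and recruits the phosphatase Ptpn6, was lower in young than in aged and spermidine oocytes. Levels in the young libraries were 11.5, 9.37 and 15.9 CPM, the aged libraries 44.2, 28.9 and 30.5 CPM and the spermidine libraries 51.2, 53.2, 31.6 and 47.4 CPM. The young libraries lay below all others, and aged and spermidine libraries overlapped. Means were 12.3 ± 3.34 (SD, n = 3), 34.5 ± 8.43 (n = 3) and 45.9 ± 9.81 (n = 4). Log2 differences were 1.49 (SE 0.25) for aged minus young, 1.90 (SE 0.25) for spermidine minus young and 0.41 (SE 0.23) for spermidine minus aged. Ptpn6 had 4.55 ± 1.57 CPM in young (n = 3), 11.3 ± 5.61 in aged (n = 3) and 7.51 ± 1.66 in spermidine oocytes (n = 4). It was higher by 1.31 on the log2 scale in aged oocytes (SE 0.38, edgeR adjusted p = 0.035), with overlapping groups, and leaving out young replicate 1, young replicate 3, aged replicate 2 or aged replicate 3 ended the call. Without the libraries with haemoglobin it was 1.16 (edgeR adjusted p = 0.17).

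The lectin genes beside Clec12a were near absent or lower in aged oocytes. Clec12b had 0 to 2 counts, Clec2m at most 4 counts and Clec1b at most 5 counts in a library. Cd69, an early activation marker of lymphocytes that is the second gene on the other side, went the opposite way: it fell from 13.5 ± 3.64 CPM in young (SD, n = 3) to 5.20 ± 0.581 in aged oocytes (n = 3), by a log2 difference of -1.37 (SE 0.23, edgeR adjusted p = 0.0030), and stood at 7.87 ± 1.24 with spermidine (n = 4). The difference was -1.65 and passed without the libraries with haemoglobin (edgeR adjusted p = 0.026).

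Sirpb1c, a signal-regulatory receptor whose family couples to the adaptor Tyrobp, was high in young oocytes and low in the other groups. The young libraries held 29.5, 35.5 and 29.0 CPM, the aged libraries 2.37, 2.44 and 3.10 CPM and the spermidine libraries 2.86, 2.16, 2.56 and 0.928 CPM. The lowest young library was above every aged and spermidine library, and the latter groups overlapped. Means were 31.3 ± 3.64 (SD, n = 3), 2.64 ± 0.403 (n = 3) and 2.13 ± 0.850 (n = 4). The log2 difference was -3.57 (SE 0.32) for aged minus young, -3.87 (SE 0.29) for spermidine minus young and -0.30 (SE 0.30) for spermidine minus aged. Tyrobp had 0 to 8 counts in a library, with 0 in 5 libraries. Cd47, the ligand of the related receptor Sirpa, had 1.62 ± 0.566 CPM in young (n = 3), 3.31 ± 0.957 in aged (n = 3) and 3.82 ± 0.741 in spermidine oocytes (n = 4), and Sirpa itself had at most 5.89 counts in a library.

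Reads of Sirpb1c cannot be fully separated from those of its paralogs, since 51.9% of the 50-base words of its transcripts occur in other genes, 42.3% in Sirpb1b and 22.7% in Sirpb1a. The sum over the 3 paralogs was also higher in young oocytes: 43.1 ± 4.64 CPM in young (SD, n = 3), 6.32 ± 0.484 in aged (n = 3) and 5.55 ± 2.34 in spermidine oocytes (n = 4). Sirpb1b alone fell from 7.61 ± 0.490 CPM (n = 3) to 1.06 ± 0.0447 (n = 3) in aged oocytes, by a log2 difference of -2.85 (SE 0.31, edgeR adjusted p = 0.00023), and by -2.96 without the libraries with haemoglobin (adjusted p = 0.021). Sirpb1a held 4.09 ± 0.524 CPM in young, 2.63 ± 0.339 in aged and 2.08 ± 0.994 in spermidine oocytes, and did not pass in edgeR's test (log2 difference -0.64, SE 0.37, adjusted p = 0.24 for aged minus young). The gene on the other side of Sirpb1c, Gm5150, ran the opposite way at a low level: 1 count in each young library, 49, 85 and 50 counts in the aged libraries and 17, 10, 6 and 5 counts in the spermidine libraries. For spermidine minus young the log2 difference of Gm5150 was 2.87 (SE 0.64, edgeR adjusted p = 0.022). Without the libraries with haemoglobin that difference was 3.03 and its call was lost. The log2 difference of Gm5150 was 5.59 (SE 0.55, edgeR adjusted p = 0.00010) for aged minus young and -2.72 (SE 0.36, adjusted p = 0.0029) for spermidine minus aged. Both calls held with each library left out and without the libraries with haemoglobin (5.93 and -2.90, edgeR adjusted p = 0.019 for each).

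**Figure D3:**
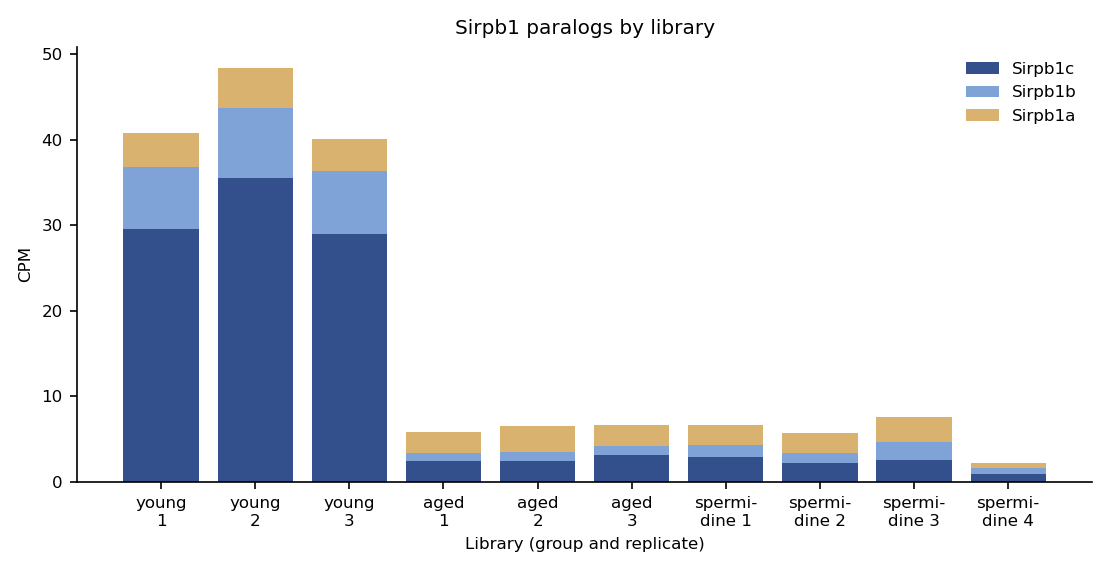
Stacked CPM of the paralogs Sirpb1c, Sirpb1b and Sirpb1a in each library. The sum was 40.0 to 48.4 CPM in the young libraries, 5.77 to 6.68 in the aged and 2.22 to 7.61 in the spermidine libraries.

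C1qb, the B chain of the complement recognition molecule C1q, did not show the strong change for which it was listed. Young oocytes held 20.5, 15.0 and 14.5 CPM, the aged libraries 16.4, 17.4 and 15.6 CPM and the spermidine libraries 8.72, 12.9, 11.0 and 17.1 CPM. The groups overlapped in all 3 comparisons. Means were 16.7 ± 3.29 (SD, n = 3), 16.5 ± 0.920 (n = 3) and 12.4 ± 3.57 (n = 4). Log2 differences were -0.01 (SE 0.23) for aged minus young, -0.41 (SE 0.22) for spermidine minus aged and -0.42 (SE 0.22) for spermidine minus young.

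C1qb stood without the chains it assembles with. C1q is built of A, B and C chains, whose genes are transcribed together in macrophages. C1qb had 271 to 493 counts in every library, while C1qa had 0 to 5 and C1qc 0 to 5 counts. In the 7 libraries without haemoglobin C1qa had at most 1 count and C1qc 0 counts. The proteases that act next were also near 0, with at most 9.04 counts of C1ra and 6.27 counts of C1s1 in a library.

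Markers of blood and immune cells were high in 3 libraries, and the 9 genes were present in all 10 apart from Il20ra. In the 3 libraries with haemoglobin, Cd74 had 18 to 32 counts, Lyz2 15 to 29 and Ptprc, the pan-leukocyte antigen, 9 to 90. In the other 7 libraries Cd74 had 0 or 1 count, Lyz2 0 to 2 and Ptprc 0 to 6. The 9 genes together had 3492 to 5739 counts in the 3 libraries with haemoglobin and 4913 to 9479 in the 7 without.

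**Figure D4:**
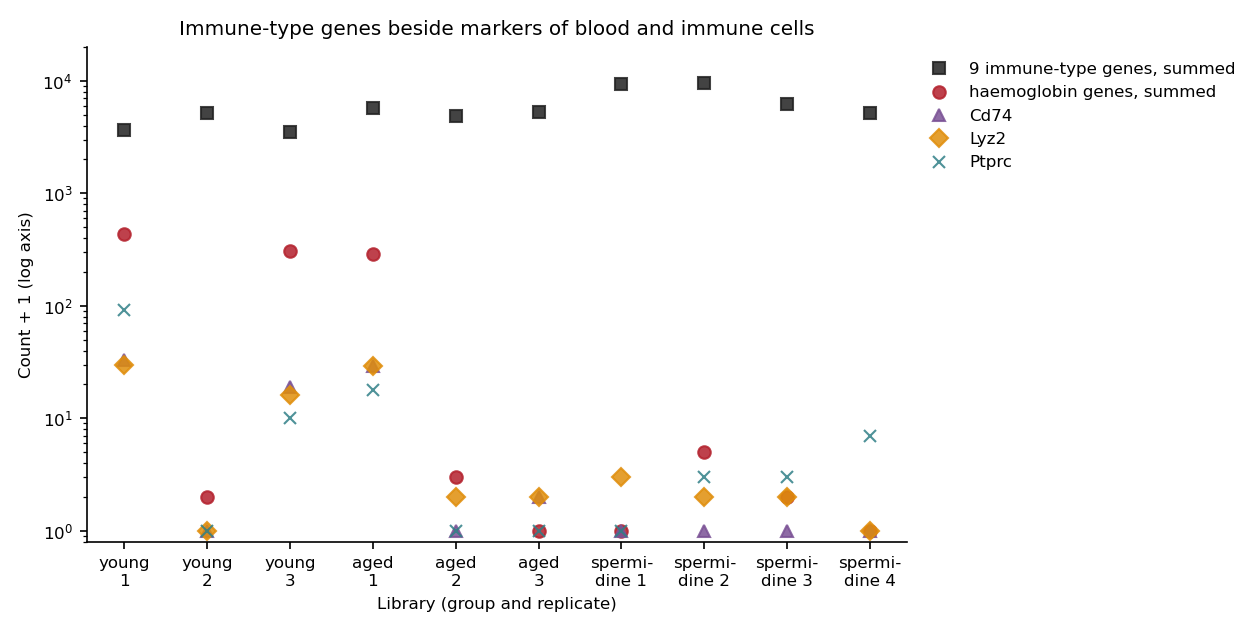
Counts plus 1 (log axis) of the 9 genes summed and of haemoglobin, Cd74, Lyz2 and Ptprc in each library. The markers are high in young replicates 1 and 3 and in aged replicate 1, while the 9 genes keep 3492 to 9479 counts in every library.

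Within the young and aged groups, the 9 genes could be compared between libraries with and without haemoglobin. The mean of the libraries with haemoglobin over the mean of those without was 2.50 for Srgn in young oocytes. This ratio rested on young replicate 1 at 8.85 CPM. Young replicate 3, also with haemoglobin, had 1.73 CPM, below the 2.12 CPM of young replicate 2 without it. For the other values the ratio ranged from 0.394 (Ccl2 in young oocytes) to 1.51 (Btla in aged oocytes). Leaving out the 3 libraries, which leaves 1 young and 2 aged libraries with the spread pooled over groups, the aged minus young log2 difference was -4.04 for Ccl2, 1.08 for Il17f, 4.99 for Srgn, -3.38 for Cd200, -2.21 for Btla, 1.62 for Clec12a, -3.72 for Sirpb1c and 0.10 for C1qb. The lone young library is assumed in that fit to vary like the other groups. Il20ra was at 0 counts in that library and at 596 and 695 counts in the aged ones.

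Whole lists of markers were summed in each library. Of 27 myeloid markers 26 were in the table, and they summed to 32.1 to 54.0 CPM in young, 68.9 to 95.1 in aged and 32.3 to 87.6 in spermidine libraries, so that every aged library lay above every young one. Without H2-Aa and Mrc1, which were at or above 1 CPM in every library, the sums were 2.91 to 16.3 CPM in young, 2.71 to 9.18 in aged and 2.11 to 2.88 in spermidine libraries. Of 13 T and NK cell markers, the 10 in the table summed to 0.503 to 19.4 CPM in young, 0.440 to 3.67 in aged and 0.541 to 0.920 in spermidine libraries. The highest sum of either list was in young replicate 1, which had 135 counts of Cd3g. B cell markers summed to 36.5 to 62.4 CPM in young, 69.4 to 70.8 in aged and 76.0 to 108 in spermidine libraries, and without Ms4a1 to at most 0.539 CPM in any library. Endothelial markers summed to 12.3 to 13.1 CPM in young, 15.6 to 16.6 in aged and 11.1 to 12.6 in spermidine libraries, and without Pecam1 and Tek to 0.395 to 0.968. The part of these markers in the levels of the 9 genes was not tested. Mast cell markers to at most 0.184 and platelet markers to at most 0.230. Granulosa and cumulus markers without Cyp19a1 and Nr5a2 summed to 1.94 to 6.24 CPM, and to 18.9 to 26.3 CPM with them. Theca and stroma markers summed to 0.624 to 2.30 CPM. Of 27 two-sided exact permutation tests of these sums between groups, 0 passed after Benjamini-Hochberg adjustment (smallest p = 0.057, which is the smallest that 4 against 3 libraries can give, smallest adjusted p = 0.39, and 0.62 without the genes at 1 CPM everywhere). With 3 against 3 libraries the smallest possible p is 0.1. Both limits lie above the threshold, so none of the 27 tests could pass, whatever the size of the difference. No conclusion on group differences in these sums is drawn from them.

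Of the summed myeloid, T and NK, and B cell markers, H2-Aa, Ms4a1 and Mrc1 were at or above 1 CPM in every library. Mrc1 was at a like level in all groups, at 6.36 ± 2.10 CPM in young (SD, n = 3), 6.15 ± 1.30 in aged (n = 3) and 6.79 ± 1.09 in spermidine libraries (n = 4). For H2-Aa and Ms4a1 every aged library lay above every young one. Aged and young libraries did not overlap in 40.0% of all tested genes. H2-Aa, a class II antigen chain, had 458 to 2347 counts, with 20.4 to 42.4 CPM in young, 60.9 to 78.3 in aged and 22.9 to 79.1 in spermidine libraries. Ms4a1, the B cell antigen CD20, had 935 to 2906 counts, with 36.0 to 62.0 CPM in young, 68.9 to 70.6 in aged and 75.9 to 107 in spermidine libraries. H2-Ab1, the partner chain of H2-Aa, had 0 or 1 count in the 7 libraries without haemoglobin and 7 to 18 in the others.

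The chemokine Ccl5 is a product of T and NK cells. It had 160, 1 and 20 counts in young replicates 1 to 3, 17, 0 and 1 in the aged replicates and 0, 0, 1 and 1 in the spermidine replicates, so it was high in the same 3 libraries as haemoglobin and Cd3g. For spermidine minus young its log2 difference of -6.91 (SE 1.62, edgeR adjusted p = 0.029) was past the threshold with overlapping groups, and the call held in 3 of the 10 fits with a library left out. Its call was lost without young replicate 1, aged replicate 1, aged replicate 3 or any of the 4 spermidine replicates. In the fit without the libraries with haemoglobin Ccl5 was not tested.

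Other genes of the same pathways moved in both directions. Lists of chemokines and their receptors, the interleukin 10 and 20 family, the interleukin 17 family, complement, inhibitory receptors and their ligands, immunoreceptor signalling, C-type lectins, proteoglycan cores and NF-kappaB held 209 further genes in the table, of which 95 were tested. For aged minus young 12 were higher and 9 lower (22.1% of those tested, against 17.8% of all tested genes), with a median log2 difference of 0.03 against 0.10 for all genes. For spermidine minus aged 2 were higher and 5 lower (7.37% against 4.86%), and for spermidine minus young 6 were higher and 6 lower (12.6% against 5.36%). The lists were chosen with earlier results of these data known, so these shares are a description only. Whether they differ from the shares of all genes was not tested. Sirpb1b, which shares sequence with Sirpb1c, is among the genes called for aged minus young and for spermidine minus young. When libraries were scaled by their total counts, which moved the median of all genes from 0.10 to 0.24 for aged minus young and from 0.05 to 0.23 for spermidine minus young, the splits were 14 higher and 4 lower for aged minus young, 2 and 2 for spermidine minus aged and 11 and 2 for spermidine minus young. Single libraries moved these counts by over 1.5 times. For aged minus young the count of 21 was 8 without young replicate 1, 11 without young replicate 3 and 11 without aged replicate 2, and for spermidine minus young the count of 12 was 5 without young replicate 1 and 6 without young replicate 3. For spermidine minus aged the count of 7 was 4 when young replicate 1 or 3 was left out, 3 when aged replicate 3 was, 2 when aged replicate 2 or spermidine replicate 3 was and 1 when spermidine replicate 2 was.

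Of 12 tested chemokine ligands 1 was lower in aged oocytes (8.33%, against 17.8% of all tested genes). Of 4 tested chemokine receptors 1 was lower (25.0%). Each list holds few tested genes, and whether its share differs from that of all genes was not tested. That receptor was Ccr3, the eotaxin receptor, which fell from 6.94 ± 0.976 CPM in young (SD, n = 3) to 3.05 ± 0.707 in aged oocytes (n = 3), by a log2 difference of -1.18 (SE 0.21, edgeR adjusted p = 0.0040), and was 3.60 ± 0.297 with spermidine (n = 4). Without the libraries with haemoglobin it was -1.18 and did not pass (edgeR adjusted p = 0.096). Among 15 tested complement genes, 3 rose and 2 fell with age (33.3%, against 17.8% of all tested genes). C1s2, a paralog of the C1s protease, was low in all groups but higher with spermidine at 0.502 ± 0.0855 CPM (n = 4) than in young oocytes at 0.0541 ± 0.0153 (n = 3), by 3.08 on the log2 scale (SE 0.53, edgeR adjusted p = 0.0051), and by 2.69 without the libraries with haemoglobin (adjusted p = 0.19).

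Of 4 tested C-type lectins other than Clec12a, 2 were higher and 1 lower in aged oocytes (75.0%, against 17.8% of all tested genes). Clec2l rose from 0.105 ± 0.0681 CPM (SD, n = 3) to 0.857 ± 0.152 (n = 3), by 2.92 on the log2 scale (SE 0.48, edgeR adjusted p = 0.0025). Clec10a, a galactose-binding lectin of macrophages, fell from 37.3 ± 0.979 CPM (n = 3) to 23.2 ± 3.20 (n = 3), a log2 difference of -0.69 (SE 0.15, edgeR adjusted p = 0.011) whose call was lost under total count scaling. Of 12 tested proteoglycan cores 1 was lower (8.33%). It was Sdc2, a cell surface heparan sulfate proteoglycan, which fell from 3.95 ± 0.483 CPM (n = 3) to 1.59 ± 0.187 (n = 3). Its log2 difference was -1.31 (SE 0.26, edgeR adjusted p = 0.0071). Without the libraries with haemoglobin none of these 3 passed in edgeR's test: the values were 2.12 for Clec2l (adjusted p = 0.21), -0.66 for Clec10a (0.24) and -1.63 for Sdc2 (0.11). Of 8 tested immunoreceptor signalling genes 1 was higher and 1 lower (25.0%). Of 13 tested NF-kappaB and inflammatory cytokine genes 2 were higher (15.4%, against 17.8% of all tested genes). The higher NF-kappaB genes were Rela, by 1.25 on the log2 scale (SE 0.26, edgeR adjusted p = 0.0082), and Nfkb1, by 0.83 (SE 0.24, adjusted p = 0.035). Rela held 9.80 ± 1.35 CPM in young (n = 3), 23.3 ± 3.52 in aged (n = 3) and 10.3 ± 3.66 in spermidine oocytes (n = 4). Nfkb1 held 1.24 ± 0.203, 2.19 ± 0.525 and 2.29 ± 0.195 CPM in the same order. The call of Rela was lost without young replicate 1, and that of Nfkb1 without any 1 of the 3 young replicates, aged replicate 1, aged replicate 2 or spermidine replicate 2. Without the libraries with haemoglobin Rela was higher by 1.12 (edgeR adjusted p = 0.24) and Nfkb1 by 0.57 (0.48).

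**Figure D5:**
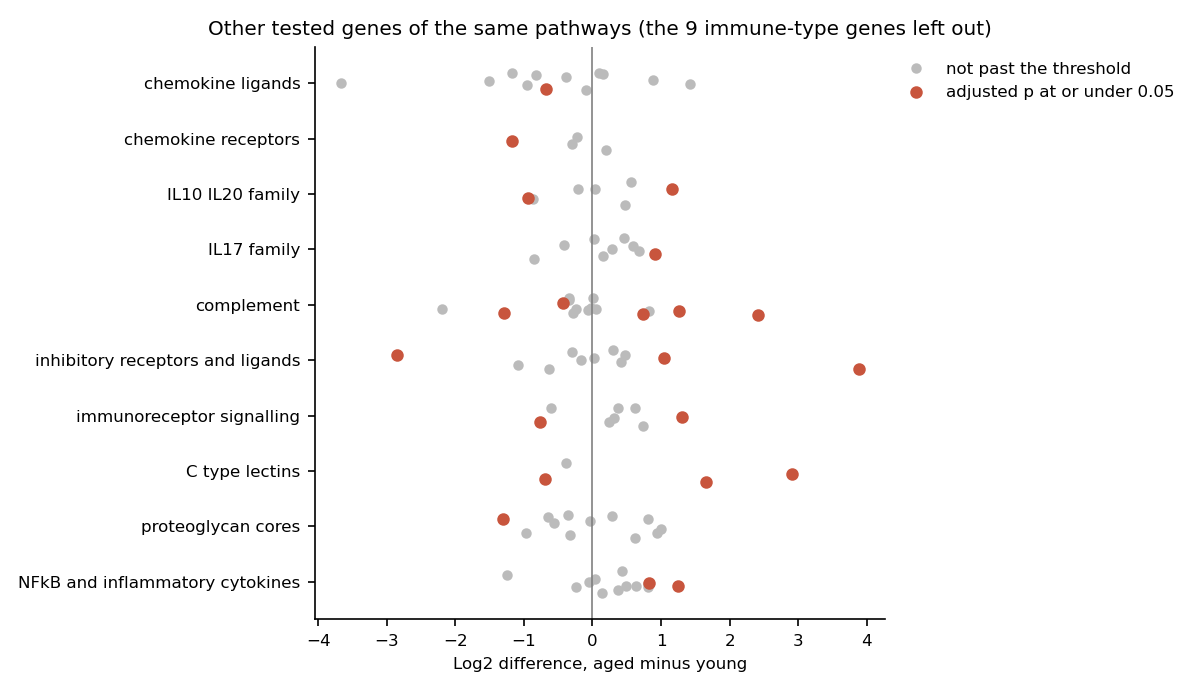
Log2 difference for aged minus young of the 95 tested genes of the pathway lists, 1 row of points per list, with the 9 immune-type genes left out. Red points passed the threshold, 12 above 0 and 9 below.

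Around all 9 genes, 32 other genes were among the nearest pair on each side in RefSeq order. For 17 of them no library reached 100 counts, and 19 were tested. For aged minus young 5 were higher and 4 lower (47.4% of those tested, against 17.8% of all tested genes). For spermidine minus aged 1 passed, Gm5150, which was lower (5.26% of those tested, against 4.86% of all tested genes). For spermidine minus young 1 was higher and 1 lower (10.5% against 5.36%). The 5 higher in aged oocytes were Gm5150, described above, Vps26a (log2 difference 0.61, edgeR adjusted p = 0.039), Supv3l1 (0.72, 0.033) and Ddx21 (0.94, 0.0093) around Srgn, and Paqr8 near Il17f (1.32, 0.023). Leaving out young replicate 3 ended the calls of Vps26a, Supv3l1, Ddx21 and Paqr8, as did leaving out the libraries with haemoglobin. The 4 lower in aged oocytes were Sirpb1b and Cd69, described above, Ephb2 beside C1qb (log2 difference -2.08, edgeR adjusted p = 0.010, call lost without young replicate 1) and Pkhd1 near Il17f (-0.96, adjusted p = 0.0068). The calls of Ephb2 and Pkhd1 were lost without the libraries with haemoglobin, at -1.67 (edgeR adjusted p = 0.26) and -0.99 (0.19).

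The genes whose log2 levels most resembled each of the 9 over the 10 libraries were mostly outside the immune lists. Likeness was measured as Pearson's r over the 10 libraries, which carry the group differences, so it describes shared group patterns and depends on them. Cd200 was closest to Ppid (r = 0.983), a cyclophilin, and to Slamf1 (0.978), a lymphocyte surface receptor. Btla was closest to Lrrc51 (0.967), Ccl2 to 1700001L19Rik (0.978) and Il20ra to Nhej1 (0.976), an end-joining factor. Clec12a was closest to Wee1 (0.987), the kinase that holds back entry into cell division. Srgn was closest to Gm52730 (0.986), Il17f to Gdpd3 (0.952), Sirpb1c to its paralog Sirpb1b (0.981) and then to Agtpbp1 (0.977), and C1qb to Upb1 (0.915).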

How the data were processed

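RNA sequencing of 10 mouse oocyte libraries (3 young, 3 aged, 4 spermidine, grouped by their titles) was re-analysed from 1 deposited table of expected counts per gene, of which 15.9% to 16.7% in a library were not whole. Build mm9 and the tools RSEM 1.3.1, Bowtie2 2.3.4.3 and DESeq2 1.4.5 appear, without role or order, in the submitters' processing notes. Whether counting used strand is not given in the sources used here. Rounded counts were filtered with filterByExpr, scaled with TMM factors and tested with edgeR 4.0.16 (R 4.3.3, quasi-likelihood, robust, 1 fit over all libraries), with Benjamini-Hochberg adjustment over all genes tested and a threshold of 0.05. SEs come from the F statistic. Members and lists were chosen with earlier results of these data known, and no test of the members as a set is given. Counts of members past the threshold are a description only, since they follow from that choice. Other genes named were drawn from fixed partners, markers of other cells, the nearest pair of genes on each side and the genes most alike. Likeness was Pearson's r of log2(CPM + 0.5). For each list and comparison, the 3 genes with the smallest p among those past the threshold could also be named. Not all of these list genes are named here. Marker sums were compared as log2(CPM + 0.1). Total library counts of 24222201 to 28730822 set the precision; floors of 3 counts cover counting error only. Transcript lengths, overlaps and 50-base words came from GENCODE M21, promoters from RefSeq (GRCm38.p6), neither the authors' build. The coordinates printed are those of GRCm38.p6, and none is given on the build that the submitters name. DESeq2 1.42.0, other scalings, filters, fits and left-out libraries were alternatives; the fit was tested on simulated data. Total count scaling and the marker sums without broadly present genes were chosen after seeing the data.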

Additional observations from a re-analysis of the deposited data

How the results depend on the processing

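Over 486 alternative values of the 9 genes' log2 differences, 480 moved by less than the spread between replicates, 6 moved by more (Srgn without young replicate 1 or without the libraries with haemoglobin, and Cd200 without aged replicate 3), and 0 called differences changed sign. Counts over all tested genes, with those of the pathway lists, were 2189 and 21 for aged minus young, 598 and 7 for spermidine minus aged, and 660 and 12 for spermidine minus young. A filter of 10 CPM in 3 libraries gave 1179 and 8 for aged minus young, 2 list genes for spermidine minus aged, and 273 and 4 for spermidine minus young, with fewer genes tested. DESeq2 gave 1366 and 11 for spermidine minus aged and 1099 genes for spermidine minus young. Fitting only the 2 groups gave 124 and 2 for spermidine minus aged, and total count scaling 259 and 4. Total count scaling gave 1236 higher and 405 lower genes for aged minus young against 1196 and 993, and 605 and 126 for spermidine minus young against 424 and 236. Without the 3 libraries with haemoglobin the counts were 123 and 1, 136 and 1, and 122 and 2, with 1 young library. Leaving out each library in turn gave 827 to 2362 genes and 8 to 25 list genes for aged minus young, 99 to 1127 and 1 to 9 for spermidine minus aged, and 283 to 874 and 5 to 14 for spermidine minus young. Libraries that moved the gene count by over 1.5 times were young replicates 1 (827 genes) and 3 (1031) and aged replicates 2 (1359) and 3 (1426) for aged minus young, young replicates 1 (283) and 3 (326) and spermidine replicate 2 (376) for spermidine minus young, and for spermidine minus aged all but young replicate 2, aged replicate 1 and spermidine replicate 1, with the lowest count without aged replicate 2 and the highest without spermidine replicate 4. Of 28 named pathway, partner and neighbour genes called for aged minus young, 11 kept the call with every library left out, and 25 lost it without the 3 libraries with haemoglobin. The cause of these shifts was not tested except where fewer genes or libraries entered.

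The titles number replicates in every group. The deviations of aged and spermidine replicates 1 correlated at 0.51 over the tested genes. The correlations of the other same-numbered libraries ranged from -0.36 to 0.17. The numbers were not taken as a pairing, since most same-numbered libraries did not deviate together. Whether aged and spermidine replicates 1 share a batch was not tested. With a replicate block the counts were 2318 and 23 for aged minus young, 998 and 6 for spermidine minus aged, and 631 and 11 for spermidine minus young.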
